A study of Mus musculus with 5 samples.

Results

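Thy_1 is 1 of 5 thymus clusters for which the authors deposited mean expression, in a table of 10721 genes by 8 clusters of sorted Vγ6 γδ T cells. The members were the values of all 10721 genes in the Thy_1 column of that table, of 8 columns in all: Thy_1 to Thy_5 from thymus, Skin from ear skin, and pLN_1 and pLN_2 from peripheral lymph nodes. Each column sums to 10000, so that a value is a gene's share of a mean cell's RNA per 10000, called its level below. One mean per cluster was given, without a spread or a number of cells. Differences between columns therefore have no test, and they are described by their size.

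The cells came from 5 droplet libraries of mice, each the only library of its group, of which 4 held Vγ6 cells. The thymus, lymph node and ear skin libraries were from C57BL/6 mice aged 8 weeks. A further pooled library mixed, without a map from cells to tissues, lymph node cells of TcrdCreER mice, thymus cells of ACT-FLPe mice and ear skin cells of TcrdH2BeGFP mice, aged 8 to 10 weeks. All were sorted by flow cytometry for the Vγ6 receptor chain. Before the sort, thymus cells bearing CD4 or CD8β were lysed with antibody and complement at 37 °C for 30 minutes, ears were digested with collagenase at 37 °C for 75 minutes, and lymph nodes were passed through nylon mesh. The number of mice per library was not stated, and which libraries gave the cells of each column was not stated either. Tissue, library and preparation differed together between Thy_1 and the Skin and pLN columns, so their parts cannot be told apart.

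γδ T cells that carry the Vγ6 chain arise in the fetal thymus and many are programmed there to make IL-17, under transcription factors that include c-Maf and Sox13. They then settle in skin, lymph nodes and other tissues. A T cell that is about to leave the thymus turns on Klf2, which drives the sphingosine 1-phosphate receptor S1pr1 for egress. Immature thymocytes express Sox4, Cd24a and Ccr9, which decline with maturation.

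The Thy_1 column carried the T cell markers. All 6 of them (Cd3d, Cd3e, Cd3g, Cd247, Thy1 and Lat) were at or above 0.5 per 10000 and summed to 51.3, against 45.7 to 75.1 in the other columns of thymus and lymph node and 32.3 in Skin. Of the 12 markers of IL-17-producing γδ T cells, 9 were below 0.5 per 10000 in Thy_1. Their sum was 4.67 in Thy_1, 29.3 in Thy_2, 41.4 in Skin, 40.0 in pLN_1 and 19.7 in pLN_2. The sum was also low in Thy_3, Thy_4 and Thy_5, at 4.72, 4.38 and 1.76. Thy_1 thus held T cell RNA with most γδ T17 markers near 0, although its cells had been sorted for Vγ6. Receptor segment genes, which would show the chain itself, were not analysed here. Of the markers of other cells, those of αβ T cells or thymocytes summed to 1.23 in Thy_1 and 10.3 in Thy_5. Every other column had a lower sum than Thy_1. These were 0.299, 0.486 and 0.461 in Thy_2 to Thy_4, 0.102 in Skin, 0.0938 in pLN_1 and 0.153 in pLN_2. Of the 7 listed markers 5 were in the table, and 5 of 5 were below 0.5 per 10000 in Thy_1. That marker list included Cd4 and Cd8b1, and thymus cells bearing CD4 or CD8β had been lysed. The part of this step in these sums was not tested. Markers of dividing cells summed to 4.65, against 9.46 in Thy_5 and 30.7 in pLN_2. The sum was lower than in Thy_1 in the rest. It was 1.94, 2.42 and 3.92 in Thy_2 to Thy_4, 1.47 in Skin and 4.44 in pLN_1. The sums for NK cell, B cell, dendritic cell and macrophage markers were 0.00838, 0.375, 0.588 and 0.0105. They cover a part of each list, since 2 of 6, 3 of 6, 4 of 7 and 2 of 7 markers were in the table.

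In the raw counts, 2517 of 2549 thymus barcodes passed the filters and held 6607432 UMIs (unique molecular identifiers, 1 per captured transcript), with a median of 2156 UMIs and 1054 genes per cell. Each was given to the thymus column that its UMIs resembled most. Thy_1 received 1301 cells or 51.7% (49.7 to 53.7%, exact binomial interval), Thy_2 648, Thy_3 182, Thy_4 143 and Thy_5 243. The mean of the cells given to Thy_1 correlated with the deposited column at r = 0.998 across genes, on the log2 scale. For Thy_5 the correlation was 0.982, and its cells were deeper, with a median of 4968 UMIs against 2065 for Thy_1. Doublets were not called, and their part in this depth was not tested. The thymus library shared 12 barcodes with the lymph node, 11 with the skin and 5 with the pooled library.

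The first comparison set Thy_1 beside the other 4 thymus clusters. Klf2, S1pr1, Ccr7, Foxp1, Igfbp4 and Cpa3 were the highest of the 5 in Thy_1 and Cebpb was the lowest. Most measured genes of the IL-17 programme were lower than the mean of the other 4 clusters, largely through Thy_2. Of 13 cytotoxic genes 8 were also lower than that mean, through Thy_4. A gene was called higher or lower at a ratio of at least 2-fold, after adding 0.1 per 10000 to both sides, with at least 0.5 per 10000 on the higher side. The added value understates the ratio of low genes, and all folds of levels below are on that scale. Against the unweighted mean of Thy_2 to Thy_5, 67 of 2982 genes (2.25%) were called higher in Thy_1 and 83 (2.78%) lower. Of the 67, Thy_1 was the highest of the 5 in 60. Of the 83, it was the lowest in 14, and the highest of the other 4 was Thy_2 for 50 genes and Thy_4 for 22. A single high cluster can raise the mean, so the rule itself makes the lowest place rarer than the highest. Set against single clusters, 64 of the 83 genes were called lower than Thy_2, 36 than Thy_3, 46 than Thy_4 and 5 than Thy_5. A gene was taken as highest or lowest of the 5 at 1.5-fold from the nearest other cluster: 49 of 2754 genes (1.78%) were highest in Thy_1 and 3 of 1851 (0.162%) lowest. Without Thy_5 the number highest was 141, without Thy_4 101 and without Thy_3 75. Without Thy_5, 45 genes were lowest and 114 were higher than the mean of the others. Without Thy_3, 5 were lowest, and without Thy_2, 51 were lower than the mean.

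**Figure D1:**
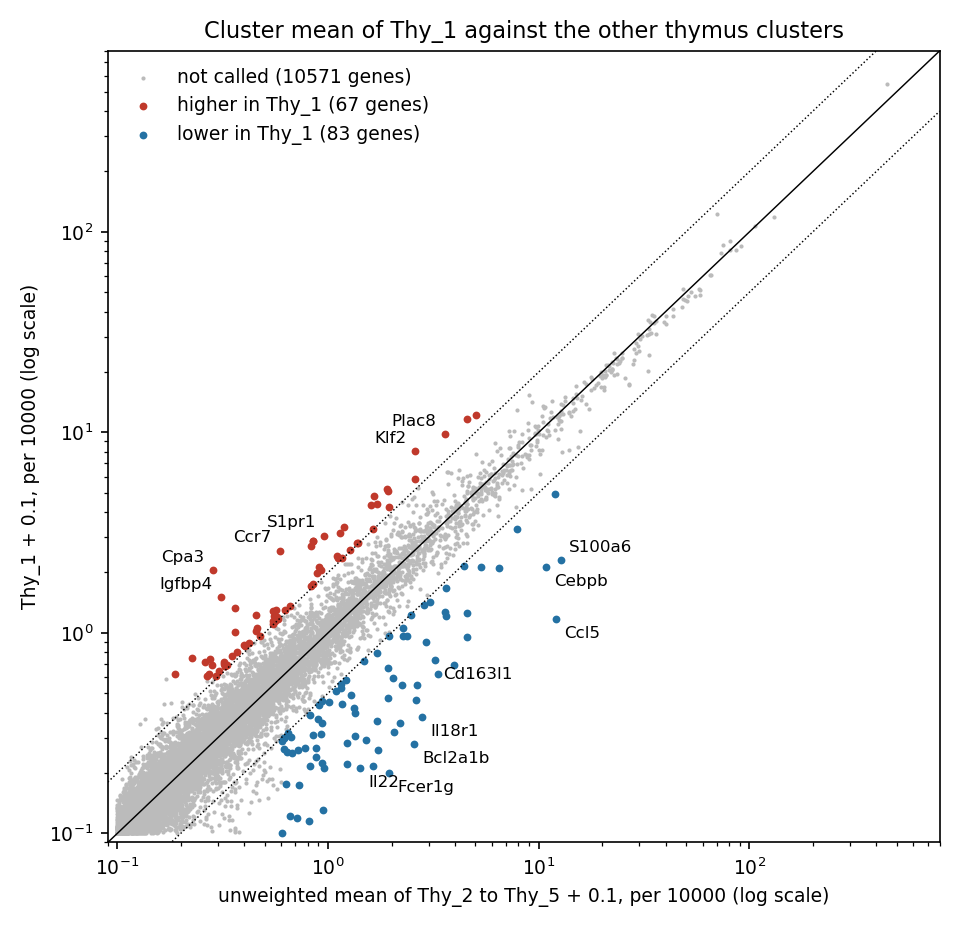
Each point is 1 of 10721 genes, placed by its level per 10000 plus 0.1 in Thy_1 (vertical log axis) and in the unweighted mean of Thy_2 to Thy_5 (horizontal log axis). Red marks the 67 genes called higher and blue the 83 called lower; the solid line is equality and the dotted lines 2-fold, and Cpa3 and Ccl5 lie far out on either side.

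Genes of egress and recirculation stood out. Klf2, the factor named above, was at 7.92 per 10000 in Thy_1 against 2.27, 1.76, 3.94 and 1.94 in Thy_2 to Thy_5. Its target S1pr1 was at 2.95 against 0.884, 0.606, 1.40 and 0.544. Ccr7, the chemokine receptor that guides T cells into lymph nodes and the thymic medulla, was at 2.47 against 0.237, 1.13, 0.484 and 0.115. All these values were higher in Thy_1 than in any other thymus cluster, by 1.99-fold for Klf2, 2.03-fold for S1pr1 and 2.09-fold for Ccr7 over the next cluster. That next cluster was Thy_4 for Klf2 and S1pr1 and Thy_3 for Ccr7. Foxp1, a forkhead factor that holds naive T cells quiescent, was at 3.05 with 0.700 to 1.49 elsewhere in thymus. Igfbp4, a secreted binder of insulin-like growth factors, was at 1.41 with 0.115 to 0.307 elsewhere, 3.70-fold over the next cluster. Over the list of circulation and naive-type genes, 7 of 10 measured members (those at 0.5 per 10000 or more on the higher side) were called higher than the mean of Thy_2 to Thy_5 and none lower, with a median log2 ratio of 1.56 beside 0.02 over all genes. The 3 members not called were Tcf7 at 2.57 (Thy_5 5.00), Cd27 at 5.79 and S1pr4 at 0.879 (Thy_4 1.59). Against Thy_4 alone the list was less one-sided, with 4 of 12 higher and 2 lower (median 0.96). The 2 lower were Dapl1, at 0.173 against 0.837, and Ly6c2, at 0.0506 against 1.62.

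The gene with the highest ratio of all was Cpa3, which encodes carboxypeptidase A3, a protease of mast cell granules that is also transcribed in early T cell progenitors. Its level was 1.95 in Thy_1 and 0.139, 0.176, 0.311 and 0.108 in Thy_2 to Thy_5, 4.98-fold over the next cluster. It was listed at 0 in Skin and was 0.0183 and 0.0585 in the pLN columns. Of other mast cell and basophil markers, Kit was at 0.181, with 0.348 in Thy_4, 0.0209 in Thy_3, 0.00791 in Thy_2 and 0 in Thy_5. Fcer1a, Mcpt4, Mcpt8 and Cma1 had 0 UMIs in the thymus cells given to Thy_1, which allows a level of up to 0.967 CPM (a gene's UMIs scaled to a fixed library total; 3 counts of the total, counting error only). Gsn, which encodes the actin-severing protein gelsolin, was at 1.23 against 0.144 to 0.349 in the other thymus clusters. Plac8, a small cysteine-rich protein of lymphoid and myeloid cells, was the most abundant of the leading genes at 9.71, with 0.789 in Thy_2 and 3.85 to 4.81 in Thy_3 to Thy_5. The others of the 15 leading genes were Gm8369 (0.522), Ppp2r3a (0.616), 1190002N15Rik (2.76), Crlf3 (2.02), Ms4a6b (4.73), Rasa3 (0.592) and Fam169b (0.646), given with their Thy_1 levels. Each of these was 1.93-fold to 2.3-fold over the next thymus cluster.

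Since these 15 genes were high together, the 250 bases before their first annotated start were read from RefSeq (build GRCm38.p6), where 12 of the 15 had an entry. Of those 4 are shown 5′ to 3′ on the gene's strand: Cpa3 and Igfbp4 had the highest ratios, Plac8 the highest level, and Klf2 is the factor of the egress programme. Capitals mark the box CACCC or, read on the other strand, GGGTG, to which KLF-type zinc finger factors can bind.
Cpa3, chr3:20242182-20242431, minus strand: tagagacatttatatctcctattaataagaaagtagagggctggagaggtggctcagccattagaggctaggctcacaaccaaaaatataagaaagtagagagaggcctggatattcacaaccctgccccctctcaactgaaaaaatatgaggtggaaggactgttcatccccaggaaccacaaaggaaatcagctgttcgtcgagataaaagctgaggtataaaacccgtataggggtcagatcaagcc
Igfbp4, chr11:99040994-99041243, plus strand: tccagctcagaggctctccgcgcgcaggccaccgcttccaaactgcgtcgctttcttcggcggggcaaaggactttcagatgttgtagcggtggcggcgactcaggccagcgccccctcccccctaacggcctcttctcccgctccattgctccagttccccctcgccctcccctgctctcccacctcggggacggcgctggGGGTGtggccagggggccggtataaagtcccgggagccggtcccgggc
Plac8, chr5:100572206-100572455, minus strand: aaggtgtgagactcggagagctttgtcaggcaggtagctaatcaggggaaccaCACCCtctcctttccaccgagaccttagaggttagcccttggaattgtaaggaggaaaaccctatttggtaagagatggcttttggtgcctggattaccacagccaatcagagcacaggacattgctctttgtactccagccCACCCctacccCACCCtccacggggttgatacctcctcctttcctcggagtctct
Klf2, chr8:72318812-72319061, plus strand: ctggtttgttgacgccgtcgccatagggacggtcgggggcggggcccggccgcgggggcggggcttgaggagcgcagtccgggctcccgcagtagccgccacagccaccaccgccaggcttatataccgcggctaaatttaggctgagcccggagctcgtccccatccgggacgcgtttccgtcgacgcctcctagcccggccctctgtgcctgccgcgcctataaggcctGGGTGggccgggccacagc
The box was present in 8 of the 12 sequences and in 51.3% of 27025 promoters of the same length. It occurred 3 times before Plac8 and not before Cpa3. The box AGATA or TATCT, bound by GATA factors, was in 3 of 12, among them Cpa3 with 2 copies, and in 27% of all. The box CTTTG or CAAAG, bound by TCF and LEF factors, was in 8 of 12 and in 48.8% of all. TATCT and CTTTG can share bases where they adjoin, and a match is a description of the sequence only.

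**Figure D2:**
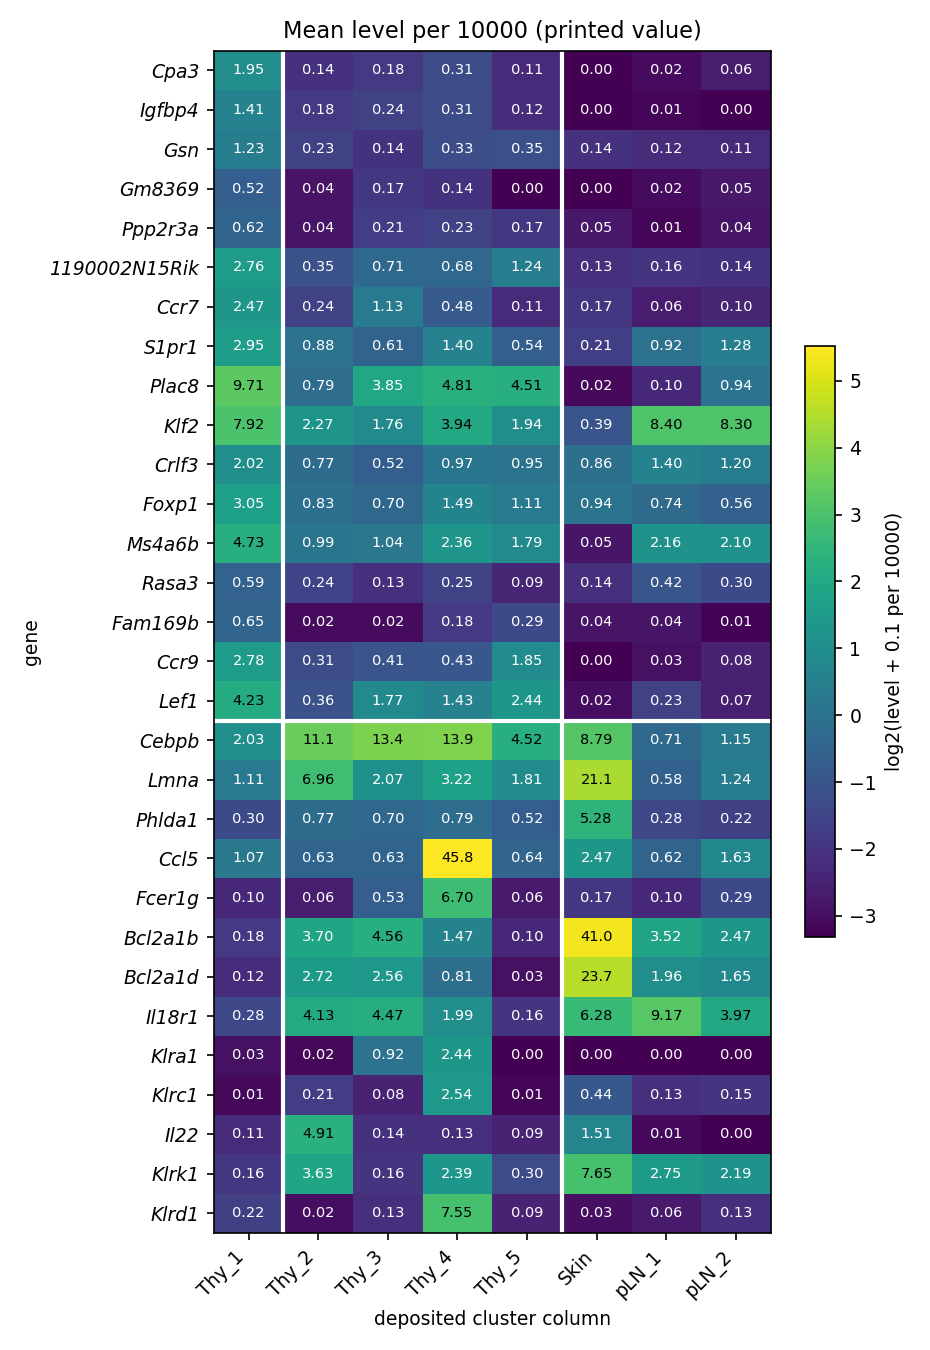
Level per 10000 of the 15 genes most raised in Thy_1 over the next thymus cluster, with Ccr9 and Lef1 (above the horizontal line), and of 13 genes low in Thy_1 (below it), in the 8 deposited columns. The printed number is the level and the colour its log2 after adding 0.1; the first column is the brightest of the thymus columns for the upper genes, and Klf2 is about as high in both pLN columns.

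Genes of thymocyte maturation were high in Thy_1, but many were shared with Thy_5. Sox4, a factor of immature T cells, was at 4.97 in Thy_1 and 4.17 in Thy_5, against 0.366 in Thy_2, 0.716 in Thy_3 and 2.05 in Thy_4. Ccr9, the receptor for the thymic chemokine CCL25, was at 2.78 in Thy_1 and 1.85 in Thy_5, with 0.315 to 0.427 in the rest. Itm2a, a gene turned on during positive selection, was at 4.28 and 3.69 in these 2 clusters. The steps of immaturity differed between the pair. Cd24a, the heat stable antigen of immature thymocytes, was at 3.27 in Thy_1 and 7.73 in Thy_5. Dntt, the polymerase that adds bases during receptor rearrangement, was at 0.391 in Thy_1 and 4.39 in Thy_5. In Thy_2 to Thy_4 Dntt was lower than in Thy_1, at 0.101, 0.0873 and 0.136. Of 17 measured members of this list, 6 were called higher than the mean of Thy_2 to Thy_5 and 1, Dntt, lower, through Thy_5. The median log2 ratio was 0.80.

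Among lineage transcription factors, 3 of 21 measured were called higher (Ikzf2, Lef1 and Sox4) and 3 lower (Rora, Maf and Ikzf3). Ikzf2, which encodes Helios, was the most abundant at 11.6, with 8.35 in Thy_4 and 2.02 to 3.90 in the other 3. Lef1, the partner of Tcf7 in naive T cells, was at 4.23 against 0.361, 1.77, 1.43 and 2.44. Satb1, a chromatin organizer of thymocytes, was at 4.56 and Id3, an inhibitor of E proteins induced by receptor signals, at 1.76; neither was called. Of the factors of the γδ T17 fate, Maf was at 0.353 against 1.92, 1.12, 0.326 and 0.276 in Thy_2 to Thy_5. Rora was at 0.863 against 4.59, 2.56, 1.23 and 0.324. Both were below Thy_2 and Thy_3 and above Thy_5. Sox13 was at 0.0721 and at or below 0.105 in every thymus cluster.

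The 3 genes lowest of the 5 in Thy_1 were Cebpb, Lmna and Phlda1. Cebpb, which encodes the leucine zipper factor C/EBPβ, was at 2.03 in Thy_1 and at 11.1, 13.4, 13.9 and 4.52 in Thy_2 to Thy_5, 5.10-fold below their mean and 2.17-fold below the lowest. It was the only gene under the lowest other cluster by more than 2-fold. Lmna, the gene of lamin A and C in the nuclear envelope, was at 1.11 against 6.96, 2.07, 3.22 and 1.81. Phlda1 was at 0.298 against 0.521 to 0.788. The next of the 15 lowest genes, from Klf10 (0.401) and Mfsd10 (0.345) to Eif3g (1.44), were 1.22-fold to 1.44-fold under the lowest other cluster and were not called.

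Il22 and much of the IL-17 programme were lower in Thy_1 than in Thy_2, and part of the programme was lower than in Thy_3. The cytokine gene Il22 was at 0.112 in Thy_1, 4.91 in Thy_2 and 0.0856 to 0.139 in Thy_3 to Thy_5. Il17a was at 0.0439 with 1.18 in Thy_2, and Il17f at 0.0170 with 0.452 in Thy_2. The receptor gene Il23r was at 0.0740 with 2.21 in Thy_2. Thy_2 was the thymus cluster with most of these transcripts, and Thy_1 was among the 4 with little. Cd163l1, a scavenger receptor gene of γδ T cells, was at 0.631 against 11 in Thy_2 and 0.319 to 0.727 in the others. Serpinb1a, an inhibitor of granule proteases, was at 0.446 against 8.80 in Thy_2. Of 17 measured members of the list, 14 were called lower than the mean of Thy_2 to Thy_5 and 1 higher, at a median log2 ratio of -1.71. Under the alternative settings of the last section this median lay between -2.10 and -0.57. Against Thy_2 alone 19 of 22 were lower (-2.86) and against Thy_3 6 of 10 (-1.29), with 1 higher in each. Against Thy_4 3 of 10 were lower and 1 higher (-0.37), and against Thy_5 none of 6 was lower and 3 were higher (0.90). The exception in the other direction was 5830411N06Rik, a scavenger receptor gene of the same family as Cd163l1, at 0.638 in Thy_1 and 0.0437, 0.149, 0.129 and 0.381 in Thy_2 to Thy_5. Il7r, at 2.33 (Thy_2 7.22, Thy_5 0.239), and Ramp1, at 2.35 (Thy_3 6.42, Thy_4 1.41), were not called against the mean. Both lay between a higher and a lower cluster.

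Cytotoxic and type 1 genes were called lower for 8 of 13 measured members, none higher, with a median of -2.41, which was -0.10 without Thy_4. Cluster by cluster the list was lowest against Thy_4 (12 of 14 lower, 1 higher, -2.80). It had 4 of 9 lower and 3 higher against Thy_2 (0.68), 2 of 8 each way against Thy_3 (-0.38), and 1 of 7 lower and 3 higher against Thy_5 (0.78). The chemokine gene Ccl5 was at 1.07 in Thy_1 and 45.8 in Thy_4, with 0.626 to 0.643 in the other 3. Its log2 ratio of -3.37 to the mean turned to 0.66 against the median of the 4 clusters and 0.67 without Thy_4. Klrd1, the CD94 chain of NK receptors, was at 0.219 with 7.55 in Thy_4, and Klrk1, which encodes NKG2D, was at 0.161 with 3.63 in Thy_2 and 2.39 in Thy_4. Fcer1g, an adaptor of activating receptors, was at 0.10 with 6.70 in Thy_4. The 5 measured members not called were Gzma, Nkg7, Ctsw, Il2rb and Ctla2a. Gzma, which encodes granzyme A, was at 8.22 in Thy_1, 24.8 in Thy_5 and 0.681 to 1.99 in the others. Nkg7, a granule membrane protein, was at 5.06 with 15.7 in Thy_4 and 0.736 to 1.67 in the other 3. Gzmb was at 0.183, with 2.98 in Thy_4.

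Among chemokine receptors, Cxcr6 was at 0.850 against 13.1, 2.18, 2.13 and 0.476 in Thy_2 to Thy_5. Ccr2, which leads cells to CCL2, was at 0.192 against 4.65, 0.686, 0.211 and 0.0735. Gpr183, an oxysterol receptor, was at 0.111 against 2.59, 0.115, 0.724 and 0.0111. All 3 were lower still in Thy_5. Of the 5 chemokine receptors measured, these 3 were called lower and Ccr7 and Ccr9 higher. The median over so few genes took the sign of the larger side (-2.18, but 1.54 without Thy_2 and 2.48 against the median of the 4 clusters). Among 13 cytokine receptors only Il18r1 (0.279 against 4.13, 4.47, 1.99 and 0.157) and Il23r were called, both lower. S100a6, a calcium-binding protein of effector and memory T cells, was at 2.20 against 34.0, 5.79, 9.53 and 1.21. Of its list of S100, annexin, galectin and lamin genes, 7 of 16 were called lower and none higher, with a median of -0.66. Against Thy_2 9 of 16 were lower (-1.14) and against Thy_4 8 of 16 (-0.90), with 0 higher in each. Against Thy_3 5 of 16 were lower and 2 higher (0.03). Against Thy_5 0 of 14 were lower and 6 higher (0.59). The co-stimulator gene Icos was at 0.593 against 5.04 in Thy_2 and 8.28 in Thy_3.

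Genes that keep T cells alive differed within 1 family. Bcl2 was at 1.20 in Thy_1 and 1.22 in Thy_4, with 0.130 to 0.343 in the other 3. Bcl2a1b was at 0.179 against 3.70, 4.56, 1.47 and 0.101, and Bcl2a1d at 0.116 against 2.72, 2.56, 0.813 and 0.0327. Bcl2 was called higher and the Bcl2a1 genes lower than the mean of the other clusters. The Bcl2a1 genes are near-identical copies, so reads may have been divided between them in ways that cannot be seen here.

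Several groups had no called member against the mean of Thy_2 to Thy_5. There 2.25% of all genes were called higher and 2.78% lower, so a short list without a call is not unusual. None of 21 genes of oxidative phosphorylation was called (median -0.12), nor any of 12 S phase genes (-0.15, but 0.68 without Thy_5), 10 genes of G2 and M phase (0.05) or 6 GIMAP genes (0.38). Against single clusters some of these lists differed. Higher than in Thy_2 were 7 of 9 S phase, 5 of 10 G2 and M phase and 4 of 6 GIMAP genes. Against Thy_3 the same lists had 1 of 9, 3 of 10 and 1 of 6 higher. Against Thy_5, 16 of 20 S phase and 4 of 11 G2 and M phase genes were lower and 3 of 6 GIMAP genes higher. Against Thy_4 none was called. Other groups had a few called members against the mean. Among immediate early genes 3 of 18 were lower, Fos (0.865), Klf4 (0.210) and Rgs1 (1.18), and none higher (-0.59). Among 14 interferon response genes Ifit1 (1.18) and Ifi203 (2.50) were called higher (0.34). Of 16 genes of the T cell receptor complex and its kinases, Blk (0.411) alone was called, lower. Across 3629 genes Thy_1 ranked 1 of 5 (highest) for 14.6%, 2 for 31.4%, 3 for 26.7%, 4 for 20.6% and 5 for 6.72%. Matched cells numbered 1301 for Thy_1 and 143 to 648 for the other thymus columns. Means over fewer cells are noisier and can take the end ranks more often, and the part of this was not tested. The most abundant transcripts other than ribosomal and mitochondrial ones included Malat1 (546), Tmsb10 (123), Tmsb4x (107), Ubb (89.5) and H3f3b (86.0). Tmsb10, a small actin-binding protein, was at 123 in Thy_1 with 47.1 to 95.2 in the other thymus columns, and Ptma at 60.9 with 120 in Thy_5.

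Cluster by cluster, different sides of Thy_1 appeared. Over all genes the correlation of log2 levels with Thy_1 was 0.945 for Thy_5, 0.942 for Thy_3, 0.939 for Thy_4 and 0.922 for Thy_2, a description across genes that share libraries. Against Thy_2, 275 of 3119 genes were higher in Thy_1 (8.82%) and 251 lower (8.05%). All 16 measured thymocyte maturation genes were higher, and Ly6a (0.525 against 10.2) and Il22 were among the lowest. Against Thy_3, 214 of 3041 were higher (7.04%) and 122 lower (4.01%). The circulation list had 7 of 10 higher, while Izumo1r was at 1.5 against 5.64 and Nrgn at 1.15 against 4.29. Against Thy_4, 123 of 3103 were higher (3.96%) and 136 lower (4.38%), and 12 of 14 cytotoxic genes were lower. Against Thy_5, 175 of 3148 were higher (5.56%) and 148 lower (4.7%). There 16 of 20 S phase genes were lower in Thy_1, while Il7r was at 2.33 against 0.239 and Ms4a4b, a surface protein of T cells, at 12.1 against 1.13. Ly6d was at 0.254 against 7.79 in Thy_5.

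The second comparison set Thy_1 beside the tissue columns. Most measured circulation and maturation genes were called higher in Thy_1 than in each of them, and most of the IL-17 programme and of the S100 list lower. Klf2 and S1pr4 were not called against either lymph node column. Of the 67 genes called higher among thymus clusters, 63 were also called higher than Skin, 54 than pLN_1 and 57 than pLN_2. Of the 83 called lower, 56 were lower than Skin, 41 than pLN_1 and 35 than pLN_2. Over all measured genes 20.9%, 12.2% and 14.5% were called higher than these columns and 14.9%, 11.4% and 15% lower. These comparisons share the Thy_1 column, so the counts are not separate evidence.

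Against Skin, 684 of 3268 genes were higher in Thy_1 (20.9%) and 487 lower (14.9%), the largest difference among the 7 columns. The median log2 ratio over all these genes was 0.24. With the ratios centred on that median the split turned to 494 higher and 607 lower, so the excess of higher genes depends on the scale. The highest ratios were those of Ms4a4b (12.1 against 0.0206 in Skin), Plac8 (9.71 against 0.0177) and Gzma (8.22 against 0.0261). Sox4, Itm2a, Lef1, Gimap6 and Cd28 followed, between 3.42 and 5.19 in Thy_1 and at or below 0.0531 in Skin. All 10 circulation genes were called higher, with a median of 3.28. Klf2 was at 0.388 and S1pr1 at 0.213 in Skin. All 6 GIMAP genes, small GTPases of lymphocyte survival, were higher as well (3.20), and 12 of 14 interferon response genes (2.10). Of 9 S phase genes 6 were higher and none lower (1.39).

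Genes low in Thy_1 against Skin included Bcl2a1 genes, the IL-17 cytokines, NF-κB targets and S100 genes. Bcl2a1b was at 0.179 against 41.0 in Skin, 147-fold lower, and Bcl2a1d at 0.116 against 23.7. Il17f was at 0.0170 against 10.9 and Il17a at 0.0439 against 6.81. Thy_1 held little of either cytokine transcript, and Skin was the column with most. Furin, a protease of the secretory path, was at 0.205 against 20.4, and Cxcl2, a neutrophil chemokine, at 0.00958 against 5.91. All 15 measured NF-κB targets were lower (median -3.21), among them Nfkbia at 2.69 against 25.7. Of 24 immediate early genes 20 were lower and none higher (-1.90), with Gadd45b at 0.651 against 18.0. Of 21 IL-17 genes 18 were lower (-2.93), and of 17 S100, annexin, galectin and lamin genes 15 (-2.65). Skin cells had been digested at 37 °C for longer than thymus cells had been incubated, and the part of this in the immediate early and NF-κB genes was not tested. The sum of keratinocyte markers was 2.81 in Skin and 0.437 in Thy_1.

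Against pLN_1, 407 of 3341 genes were higher in Thy_1 (12.2%) and 380 lower (11.4%). Of 16 thymocyte maturation genes 15 were higher, with a median of 4.02: Sox4 was at 4.97 against 0.0388 and Cd28 at 3.42 against 0.0412. Gzma was at 8.22 against 0.0262. In the circulation list 8 of 10 genes were higher than in pLN_1, and Klf2 and S1pr4 (0.879 against 1.23) were not called. Klf2 was at 7.92 in Thy_1, 8.40 in pLN_1 and 8.30 in pLN_2, a ratio of 0.943 and 0.955, whereas its target S1pr1 was at 2.95, 0.919 and 1.28. Klf2 was thus level between Thy_1 and the lymph node columns while S1pr1 was higher in Thy_1. Lowest were Cxcr6 (0.850 against 32.1, 33.9-fold), Ccr2 (0.192 against 7.08) and Il18r1 (0.279 against 9.17). S100a6 was at 2.20 against 54.3. Of 22 IL-17 genes 20 were lower (-3.56): Maf was at 0.353 against 7.0 and Cd163l1 at 0.631 against 10.7, whereas Il17a itself was low in both, at 0.0439 and 0.149.

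A further group was high in Thy_1 and Skin and low in the lymph node columns. Crem, a cAMP response factor, was at 14.9 in Thy_1, 13.1 in Skin, 0.424 in pLN_1 and 0.720 in pLN_2. Vps37b, a sorting protein, was at 14.2, 11.9, 0.318 and 0.533 in the same order. Both were also high in every other thymus column, at 8.22 or more. Heat shock genes were also low in the lymph node columns, with 9 of 11 higher in Thy_1 than in pLN_1 (1.80) and 9 of 11 higher than in pLN_2 (1.49), whereas against Skin 4 of 12 were higher and 4 lower. Hspa1a was at 2.00 in Thy_1, 0.449 in pLN_1 and 0.532 in pLN_2, and Hspe1 at 13.6, 2.60 and 2.34. The thymus and skin protocols had steps at 37 °C and the lymph node protocol stated none, and the part of this in these genes was not tested.

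Against pLN_2, 486 of 3347 genes were higher in Thy_1 (14.5%) and 501 lower (15%). The highest were Sox4, Itm2a, Lef1, Rras2, Satb1 and Cd28. The lowest were Cd74 at 0.426 against 24.8 and other genes of MHC class II, H2-Ab1 at 0.0812 against 5.01. The dendritic cell markers summed to 35.3 in pLN_2 and 0.588 in Thy_1, and those of macrophages or monocytes to 2.22 and 0.0105. Of cell cycle genes, 22 of 24 G2 and M phase genes (-2.45) and 16 of 20 S phase genes (-1.25) were lower, with Top2a at 1.61 against 10.6. The part of other cell types and of division in the pLN_2 column was not tested. Of 19 IL-17 genes 14 were lower and 2 higher (-2.79), and of 17 S100, annexin, galectin and lamin genes 14 were lower (-2.10).

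**Figure D3:**
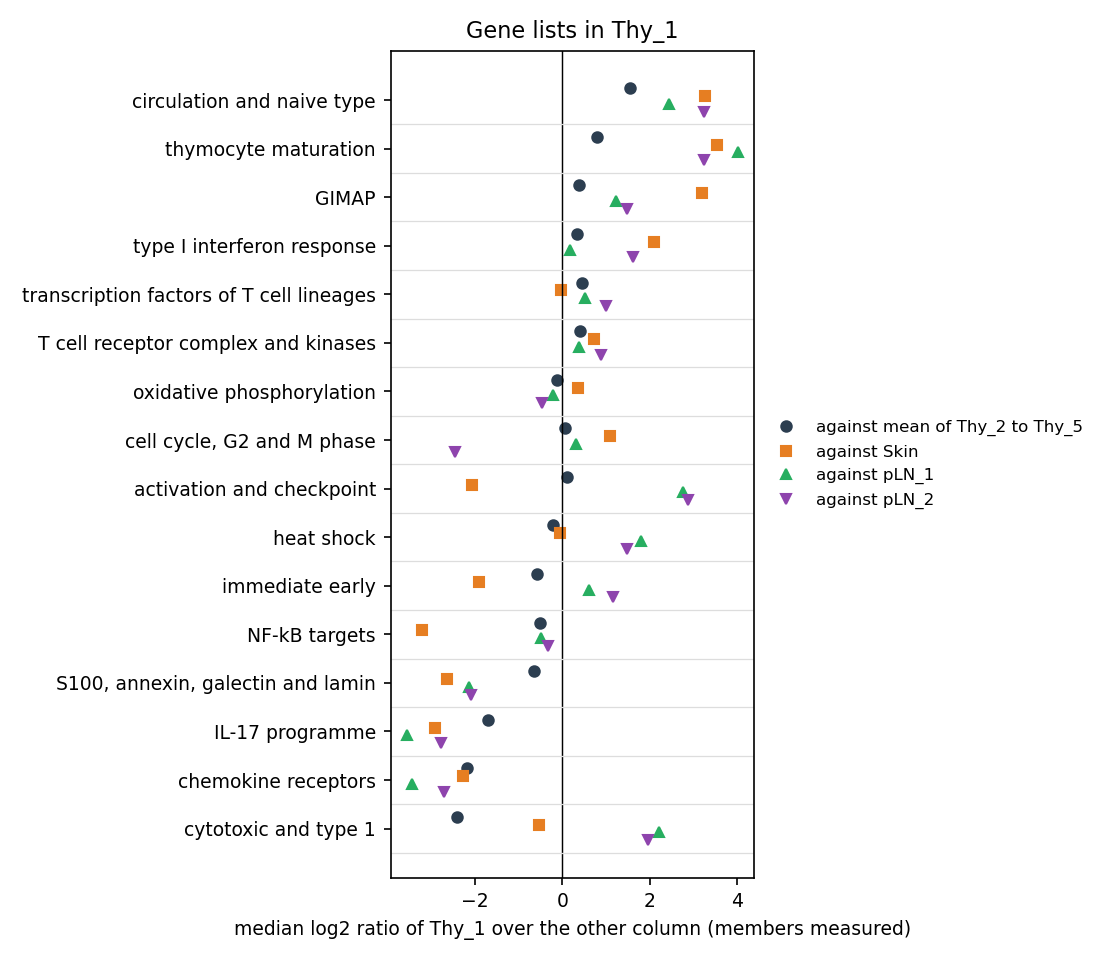
Median log2 ratio of Thy_1 over 4 references (the mean of Thy_2 to Thy_5, Skin, pLN_1 and pLN_2; symbols as in the key) for 16 gene lists, over the members that reached 0.5 per 10000. Circulation and thymocyte maturation genes lie to the right of 0 for all 4 references and the IL-17 programme to the left, while cytotoxic, activation and heat shock genes change side with the reference.

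The deposited means give no depth, so the leading genes were read again in the raw counts. Genes were divided in 2 sets, cells were given to a column with one set and each gene was read in cells chosen with the other, and 95.4% of thymus cells got the same column from both. These cells were chosen by likeness to the column and may largely be the ones behind it, so this shows counting error and is no independent test. Cpa3 was at 205 CPM (189 to 222, exact Poisson interval) in the cells given to Thy_1 and 54.9 CPM (47.4 to 63.2) in those given to Thy_2 to Thy_5, a ratio of 3.74 (3.17 to 4.41). Ccr7 was at 216 and 60.5 CPM, S1pr1 at 265 and 98.6, Klf2 at 704 and 267. For all 15 leading genes the interval of the ratio lay above 1, and the median ratio was 2.76. Of the 15 lowest genes, 14 had an interval below 1, with Cebpb at 220 and 807 CPM. These intervals say nothing of the spread between mice.

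Cells given to Thy_5 held more of the leading genes than the deposited Thy_5 column. Cpa3 was at 1.07 per 10000 in those cells and 0.108 in the column, Igfbp4 at 0.931 and 0.115, and Ccr7 at 0.641 and 0.115. For Thy_2 the same values were 0.223 and 0.139 for Cpa3. The split between Thy_1 and Thy_5 for these genes is therefore sharper in the deposited means than in cells matched here.

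The pooled library had other mice and strains. Of its 2006 kept cells, matched to all 8 columns, 157 went to Thy_1 (7.83%, 6.69 to 9.09%), 576 to Thy_2, 548 to Skin, 423 to pLN_1 and 75 to pLN_2. Their tissue is not known. In the cells given to Thy_1, 14 of the 15 leading genes had a ratio with its interval above 1 against the cells given to Thy_2 to Thy_5, and the median ratio was 6.23. The cells were chosen by likeness to the same column that gave these genes, and that column may include pooled cells. These ratios are therefore no independent test. Cpa3 was at 150 CPM against 24.1 (ratio 6.23, 3.84 to 10.2) and Ccr7 at 327 against 31.4. The exception was Gm8369, with 3 UMIs and a ratio of 0.900 (0.165 to 3.28). The reference cells here were mainly those given to Thy_2, and the cells given to Thy_5 had Cpa3 at 203 CPM, as high as Thy_1. Of the 15 lowest genes only 7 had an interval below 1, Cebpb and Lmna among them, while all 10 genes lowest against the mean did. Il22 was at 13.4 CPM against 438. In the pooled Thy_1 cells Cd8b1 was at 103 CPM and Dntt at 63.4, against 4.27 and 10.3 in the reference cells. In the thymus library the same genes were at 42.0 and 46.0 CPM in Thy_1 cells and 51.7 and 87.0 in the others.

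**Figure D4:**
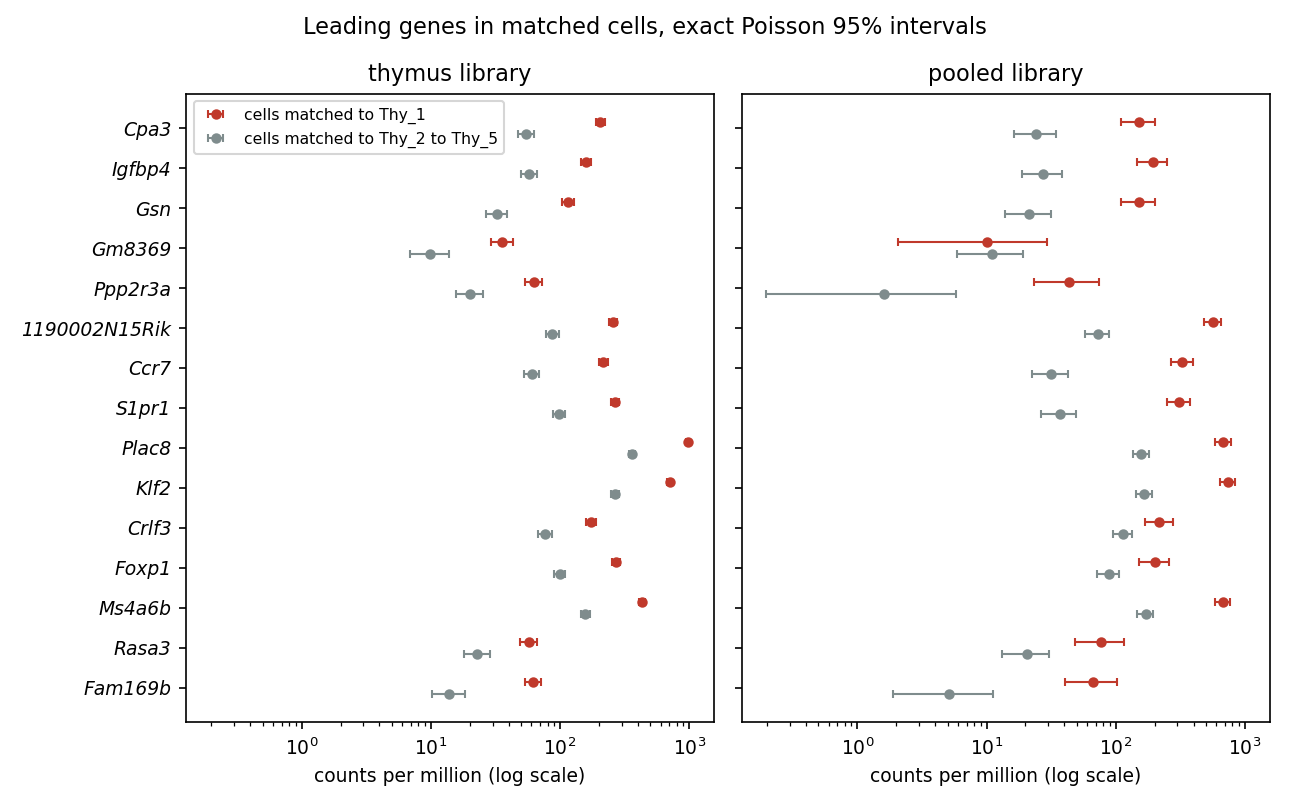
CPM (log axis) of the 15 leading genes in cells matched to Thy_1 (red) and to Thy_2 to Thy_5 (grey), in the thymus library (left) and the pooled library (right), with exact Poisson 95% intervals. The intervals are apart for every gene in the thymus library and overlap for Gm8369 in the pooled library.

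Each leading gene was detected in part of the cells. After each cell was thinned to 1000 UMIs, Plac8 had a UMI in 53.9% of the cells given to Thy_1 (51.1 to 56.7%, exact binomial interval), 10.0% of those given to Thy_2, 36.4% for Thy_5 and 0.960% of lymph node cells. Without thinning the share for Thy_1 was 72.0%. Klf2 had a UMI in 47.1% of Thy_1 cells, 22.1% of other thymus cells and 50.4% of lymph node cells. Cpa3 had a UMI in 13.3% of Thy_1 cells (11.5 to 15.3%), 10.2% of Thy_5 cells (6.63 to 14.8%) and 3.13% of Thy_2 cells. In the lymph node library 1 of 1458 cells had a Cpa3 UMI (0.0686%), at a median depth of 1775.5 UMIs per cell. Cpa3 was thus detected in a minority of Thy_1 cells, and the interval of its share overlapped that of Thy_5 cells. Il17a had a UMI in 0.161% of Thy_1 cells and 7.82% of Thy_2 cells, and Cd163l1 in 7.98% and 65.4%. Cd3e, present in all T cells, was found in 66.2% and 69.7%. Across the cells given to each thymus column and the lymph node cells, 55.3% to 69.7% had a Cd3e UMI.

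**Figure D5:**
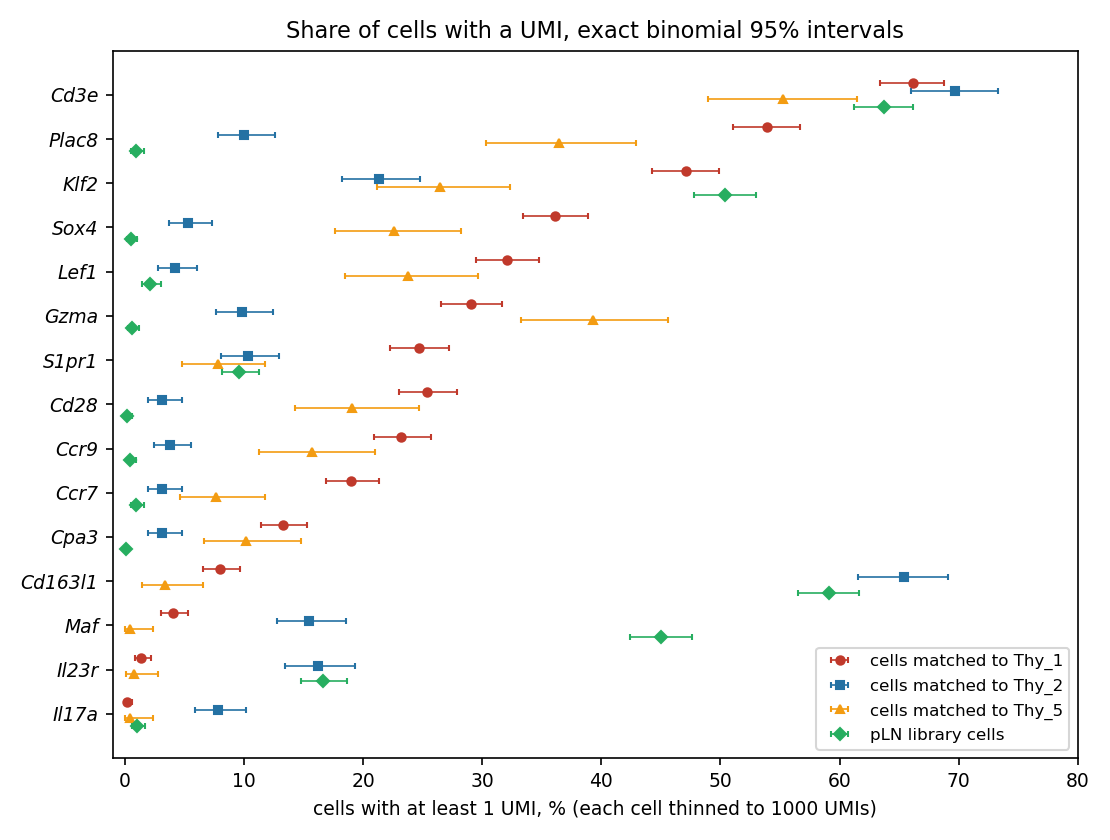
Share of cells with at least 1 UMI after thinning to 1000 UMIs per cell, with exact binomial 95% intervals, for 15 genes in cells matched to Thy_1, Thy_2 and Thy_5 and in cells of the lymph node library. Thy_1 cells lie to the right of Thy_2 cells for Plac8 through Cpa3 and to the left for Cd163l1 through Il17a.

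Among 1190 thinned cells given to Thy_1 by both gene sets, Ccr7 had a UMI in 229, S1pr1 in 301 and Klf2 in 568. Of the 1190 cells, 33.1% had no UMI of Ccr7, S1pr1 or Klf2, 44.1% had 1 of the 3, 20.2% had 2 and 2.61% had all 3. At such rates of detection few cells would show all 3 even if the genes were unrelated. These shares therefore do not show whether the genes go together. Of 21 pairs among 7 genes, intervals were apart for 2. Klf2 had a UMI in 54.8% of the cells with S1pr1 (49.0 to 60.5%) and 45.3% of those without. Gzma had a UMI in 44.4% of the cells with Cpa3 (36.5 to 52.4%) and 26.0% of those without. Both pairs were positive, and for the other 19 the intervals overlapped, which at 1000 UMIs per cell does not show that the genes are unrelated.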

How the data were processed

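Per the labels, sorted mouse γδ T cells were sequenced with the 10x Genomics Chromium 3' v2 kit. The submitters' processing notes name Cell Ranger 2.0, Seurat 2.3 and build mm10, with no role for each. The authors deposited UMI counts per gene and barcode, not normalized, and a table of cluster means whose values, per 10000, have another unit that no source defines. How cells were clustered is not given in the sources used here.

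Levels were compared as log2 of the value plus 0.1 per 10000, called at 2-fold with 0.5 per 10000 on the higher side. For single cells, barcodes with at least 200 genes and at most 10% mitochondrial UMIs were kept, and no doublets were removed. Each cell went to the column with the highest multinomial likelihood (0.01 per 10000 added to each level). This step was also run on cells simulated from the columns themselves, which cannot show how well it places real cells. Levels are CPM with exact 95% intervals. Python 3.11.15, numpy 2.4.6, pandas 2.3.3, scipy 1.17.1 and matplotlib 3.10.9 were used.

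The cluster, the 26 gene lists and 15 marker lists were chosen with earlier results of these data known. Genes were named by rule: the 15 highest and 15 lowest against the nearest thymus cluster, the 10 highest and 10 lowest against the mean of Thy_2 to Thy_5 and each tissue column, up to 4 members per list, all measured members of the IL-17 and transcription factor lists, the markers and the 10 most abundant genes. Ribosomal and mitochondrial genes were left out of rankings. Genes beyond this rule in the text were chosen after their values were seen. The authors' marker table and the skin Vγ4 library were not used here.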

Additional observations from a re-analysis of the deposited data

How the results depend on the processing

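Of 144 counts of called genes recomputed under the alternatives, 59 stayed within 1.5 times and 85 moved beyond it. Higher and lower counts follow in the order mean of Thy_2 to Thy_5, Thy_2, Thy_3, Thy_4, Thy_5, Skin, pLN_1 and pLN_2. With 0.5 per 10000 added they were 20 and 44, 117 and 156, 77 and 55, 26 and 72, 70 and 51, 310 and 322, 222 and 186, and 272 and 263, with 21 genes highest and 1 lowest in Thy_1. With a minimum of 2 per 10000 they were 26 and 29, 78 and 108, 62 and 36, 26 and 46, 65 and 44, 164 and 215, 140 and 122, and 143 and 176, with 20 highest and 1 lowest. At 3-fold they were 11 and 42, 123 and 119, 65 and 44, 28 and 61, 49 and 34, 311 and 284, 209 and 161, and 267 and 227, with 8 highest and 1 lowest at 2-fold. Without a minimum, 152 genes were lower than the mean, the pairs from Thy_2 on were 481 and 434, 455 and 209, 436 and 272, 374 and 263, 1360 and 759, 699 and 653, and 903 and 762, with 91 highest and 9 lowest. Without Thy_5, 114 genes were higher than the mean of the others, 141 highest and 45 lowest; without Thy_4, 101 highest; without Thy_3, 75 highest and 5 lowest; without Thy_2, 51 lower. Against the median of the 4 clusters 36 were lower. Centring the ratios on 0 gave 154 highest and 27 lowest. Leaving out mitochondrial and ribosomal genes gave 190 lower than Thy_3, 198 higher than Thy_4 and 227 lower than Thy_5, and adding 0.02 per 10000 gave 187 higher than Thy_4; the causes were not tested. Of 949 log2 ratios of named genes, 917 kept direction and side, 15 lost and 15 gained the limit, and 2 reversed, both of Ccl5 (0.66 against the median, 0.67 without Thy_4). Of 148 ratios in matched cells 144 kept theirs. With at most 5% mitochondrial UMIs, 799 cells matched Thy_1, since fewer cells were kept. Of 754 list medians 625 moved little and 129 more. Of 104 medians of gene lists, 25 changed sign under at least 1 alternative, among them those of chemokine receptors, activation, tissue residency, cell cycle, PLZF and integrin genes against the thymus mean, of NF-κB targets and interferon genes against both pLN columns, and of cytotoxic, heat shock, MHC class I and transcription factor genes against Skin. No paired analysis was possible because each group has 1 library.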
